A study of Homo sapiens with 27 samples.

Results

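A549 cells transfected with an siRNA that targets SRSF1 (SRSF1 siRNA) were compared with A549 cells that received a scrambled RNA (scramble siRNA). The columns of these conditions were chosen by their sample titles, which gave 18 of the 27 hybridizations of the series, 9 for each condition. The other 9 hybridizations come from cells treated only with Lipofectamine, the vehicle of the transfection, and were used as a further control. Each condition has 3 samples with 3 hybridizations each, and hybridizations of the same sample were averaged on the log2 scale, so that 3 samples with SRSF1 siRNA were set against 3 samples with scramble siRNA, 6 of the 9 samples. All 73554 splicing events and all 16733 genes of the table were included. A549 is an established human lung adenocarcinoma line, so all samples come from the same line. The labels do not say whether they were separate cultures, and the dose of the siRNA and the time after transfection are not given in the sources used here. Gene IDs of the table could be paired with a symbol for 10 genes only. The signal of SRSF1 itself and the markers of the cell line were therefore not analysed here, and the knockdown was not checked in these data.

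SRSF1 is a member of the SR proteins, a family of splicing factors that bind short sequences in exons through their RNA recognition motifs and recruit the spliceosome through a domain rich in arginine and serine. SR proteins are best known for promoting the inclusion of exons, but the same factor can favour inclusion in one exon and skipping in another, and SRSF1 also takes part in mRNA export, nonsense-mediated decay and translation. SRSF1 is known as a proto-oncogene in several epithelial tumours, the lung included. The HTA 2.0 array carries probes for exons and for exon junctions. A splicing event is described there by 3 groups of probes: path 1, the configuration of the larger genomic length (in a cassette event the one that includes the exon), path 2, the shorter one (the one that skips it), and a reference path that both isoforms share. Each path has 1 log2 signal per hybridization. Changes are given as SRSF1 siRNA minus scramble siRNA on the log2 scale.

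For 5 of the 10 events with a gene name, the PCR primers of the study are shown. In the cassette events (NCOR1, FBXO22, KIF23 and AC024560.3) the study used a single pair for both isoforms, which differ in the size of the product, and in SUPT16H, whose event is an alternative last exon, 1 forward primer was combined with 2 reverse primers. They are shown because they are the sequences with which the study followed these events beside the array. They come from the study's list of PCR primers, and their place in the genome was not checked here. The primers are written 5′ to 3′ in lower case.
KIF23 forward: tgtggctaatcccttggtca
KIF23 reverse: ggcatcaacctcacactgta
AC024560.3 forward: cctaccaggtcacacactgt
AC024560.3 reverse: ccaccaaatgcacgctgata
FBXO22 forward: gttgagtaacctggcggag
FBXO22 reverse: actgtatgtggtaagatgcgaac
NCOR1 forward: ggtcttggcccaaaagttga
NCOR1 reverse: gagctgatcataacgctggc
SUPT16H forward: ctcgcgtgattctcggaac
SUPT16H reverse1: tcaacacccactgatacaaca
SUPT16H reverse2: ctgttaaggggcagcgttc

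Signals of the hybridizations were on one scale, with medians between 6.25 and 6.30 with SRSF1 siRNA and between 6.24 and 6.27 with scramble siRNA. Over the reference paths of the 25805 events tested, the median SD of 3 samples was 0.06 with SRSF1 siRNA, 0.07 with scramble siRNA and 0.08 with Lipofectamine. The paper describes 3 biological replicates per condition with 3 hybridizations of each. The titles give each column a sample number and a replicate number. Here the sample number marks the biological replicate, and the sources do not say which of the numbers does. The mean square between sample numbers was 1.345 times the mean square within them with SRSF1 siRNA, 1.98 times with scramble siRNA and 1.87 times with Lipofectamine. For the replicate numbers these ratios were 0.71, 0.83 and 0.67 in the same order of conditions. The samples of a condition thus differed little more than hybridizations of the same sample, least with SRSF1 siRNA, and the p-values below measure a spread that may be largely technical. Precision is limited by the number of arrays.

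Expression differed between SRSF1 siRNA and scramble siRNA in most genes tested, mostly by small amounts. A gene's level was computed by averaging its reference paths on the log2 scale, and a gene was tested if its highest sample passed a log2 signal of 5.77, the 25% quantile of the highest reference signals. Of 12545 genes tested, 3581 were higher (28.5%) and 3391 were lower (27.0%) with SRSF1 siRNA, 55.6% in either direction (limma, adjusted p under 0.05). The median change was 0.32 among the higher genes and -0.38 among the lower ones. The larger changes were mostly falls: 651 genes were higher and 954 lower by over 1.5-fold, 135 and 344 by over 2-fold, 21 and 57 by over 3-fold, and 3 and 20 by over 4-fold. When all 3 paths were averaged for a gene, 52 were higher and 126 lower by over 2-fold. Between the 1% and the 99% quantile, changes ran from -1.34 to 1.02. In 125 of the 135 genes that were higher by over 2-fold, all 3 samples with SRSF1 siRNA lay above all 6 control samples. In 335 of the 344 that were lower by over 2-fold, they lay below all 6. Of all 3581 higher genes 2853 lay above all 6 controls, and of all 3391 lower genes 2706 lay below them. Against scramble siRNA alone, 4399 of the 12545 genes tested lay above without overlap and 3790 below. The genes over 2-fold were chosen by their change in this contrast, so their separation is a description. In the RNA of a whole culture, fewer cells that express a gene and less RNA per cell cannot be told apart.

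**Figure D1:**
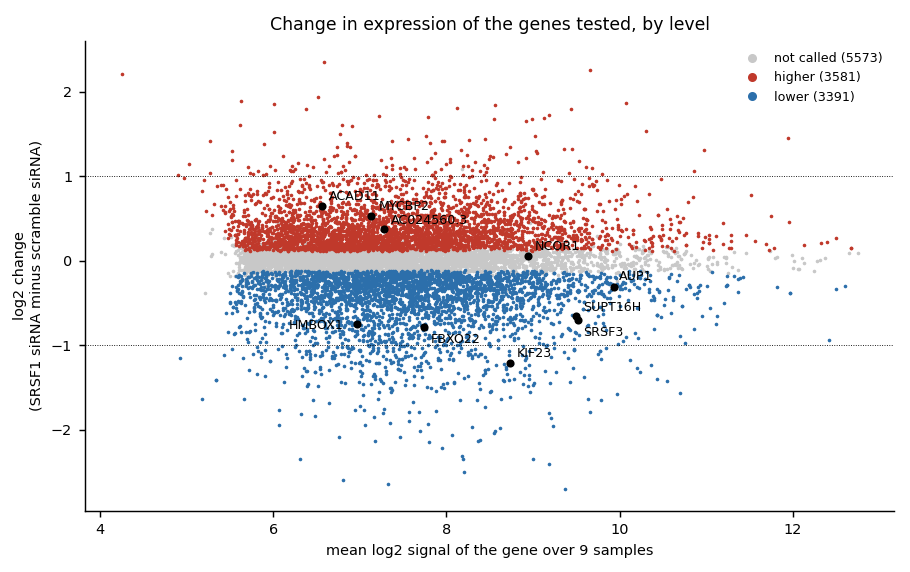
Log2 change of each of the 12545 genes tested (SRSF1 siRNA minus scramble siRNA, vertical axis) against its mean log2 signal over 9 samples (horizontal axis), with genes called higher in red and lower in blue, dotted lines at a 2-fold change and the named genes in black. More points lie below the lower dotted line, with 344 genes called, than above the upper one, with 135.

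Weakly and strongly detected genes differed in the direction of their calls. When the genes were split into 4 equal bins by their signal with Lipofectamine, samples outside this contrast, 26.5% were higher and 13.0% lower in the bin of the lowest signals, from 3.40 to 6.46. In the bin of the highest signals, from 8.07 to 12.76, 28.9% were higher and 37.8% lower. The share of higher genes varied between 26.5% and 30.8% over the bins, so that it was the share of lower genes that moved with the signal. The falls over 2-fold followed it, with 25, 57, 112 and 150 genes from the lowest to the highest bin, against 37, 26, 31 and 41 rises. The lowest bin reaches under the signal that a gene needed to be tested. A gene that low with Lipofectamine was tested only if its highest sample passed, which favours genes that rise in another condition. In the bins above it, from 6.46 up, the share of lower genes was 23.2%, 34.1% and 37.8%. The parts of this filter and of the background of the array in this pattern were not tested. The controls differed from each other in fewer genes, with 1396 higher (11.1%) and 1131 lower (9.02%) with scramble siRNA than with Lipofectamine, 13 and 17 of them by over 2-fold.

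Among the named genes that act in RNA processing and chromatin, SRSF3 and SUPT16H were lower and NCOR1 did not pass the test. SRSF3, the smallest SR protein, is known to regulate its own mRNA through an exon that carries a premature stop codon. Its level was 8.98, 9.01 and 9.09 in the samples with SRSF1 siRNA, against 9.72, 9.74 and 9.72 with scramble siRNA. The groups did not overlap, and the fall of 0.70 (standard error 0.05, adjusted p = 1.27e-07) is a 1.62-fold lower signal. SUPT16H, the large subunit of the histone chaperone FACT, had 9.06, 9.11 and 9.08 with SRSF1 siRNA, against 9.73, 9.77 and 9.72 with scramble siRNA, with no overlap. It fell by 0.66 (standard error 0.04, adjusted p = 1.17e-07), and all 3 samples also lay below the 3 with Lipofectamine, at 9.61, 9.68 and 9.70. NCOR1, a scaffold of corepressor complexes of nuclear receptors, had 8.96, 8.92 and 8.87 with SRSF1 siRNA, against 8.92, 8.76 and 8.88 with scramble siRNA. Its samples overlapped, and the change was 0.06 (standard error 0.06, adjusted p = 0.389).

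KIF23, the kinesin of the centralspindlin complex that builds the midzone of the dividing cell, fell most among the 10 genes and came at place 252 of all genes tested by the size of its change. It had 8.10, 8.04 and 7.82 with SRSF1 siRNA, against 9.19, 9.25 and 9.14 with scramble siRNA. Sample 3 of SRSF1 siRNA was the lowest, and the groups did not overlap, with a 2.30-fold lower signal (standard error 0.07 on the log2 scale, adjusted p = 4.81e-08). HMBOX1, a homeobox protein that binds telomeric DNA, was at 6.58, 6.41 and 6.38 with SRSF1 siRNA and at 7.28, 7.31 and 7.02 with scramble siRNA. It fell by 0.75 (standard error 0.09, adjusted p = 1.83e-05) with no overlap.

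The named genes of protein turnover moved in both directions. MYCBP2, a large ubiquitin ligase known from the growth of axons, was higher, at 7.61, 7.36 and 7.37 with SRSF1 siRNA against 6.90, 6.90 and 6.94 with scramble siRNA. Its rise of 0.53 (standard error 0.07, adjusted p = 3.06e-05) was led by sample 1 of SRSF1 siRNA. FBXO22, the substrate receptor of an SCF ubiquitin ligase, was lower, at 7.24, 7.49 and 7.36 with SRSF1 siRNA against 8.07, 8.27 and 8.10 with scramble siRNA. The controls of FBXO22 differed from each other: with scramble siRNA it was 0.44 above its level with Lipofectamine (adjusted p = 0.00342), so that its fall of 0.78 against scramble siRNA was 0.34 against Lipofectamine. AUP1, a protein of lipid droplets that takes part in the degradation of proteins of the endoplasmic reticulum, had 9.67, 9.66 and 9.67 with SRSF1 siRNA, against 10.03, 9.92 and 9.99 with scramble siRNA. Its fall of 0.31 was the smallest of those that passed (standard error 0.05, adjusted p = 0.000128).

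ACAD11, an acyl-CoA dehydrogenase of fatty acid oxidation, was higher with SRSF1 siRNA, at 7.09, 6.98 and 6.94, against 6.42, 6.36 and 6.28 with scramble siRNA. Its rise of 0.65 (standard error 0.07, adjusted p = 4.14e-06) was as large against Lipofectamine, at 0.67. AC024560.3, which has only a name derived from its clone, was also higher, at 7.50, 7.54 and 7.50 with SRSF1 siRNA against 7.14, 7.20 and 7.09 with scramble siRNA, a change of 0.37 (standard error 0.06, adjusted p = 0.000155). Of the 10 named genes 3 were thus higher, 6 lower and 1 not called. They were picked for their splicing in these same arrays, so this split says nothing about other genes. With the mean of all paths in place of the reference paths, the direction of all 10 changes was kept, but those of ACAD11 (0.42), AC024560.3 (0.21), AUP1 (-0.11), FBXO22 (-0.42), KIF23 (-0.80), SUPT16H (-0.35) and SRSF3 (-0.28) were smaller by over 1.5 times. The median in place of the mean gave a rise of 0.81 in MYCBP2.

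**Figure D2:**
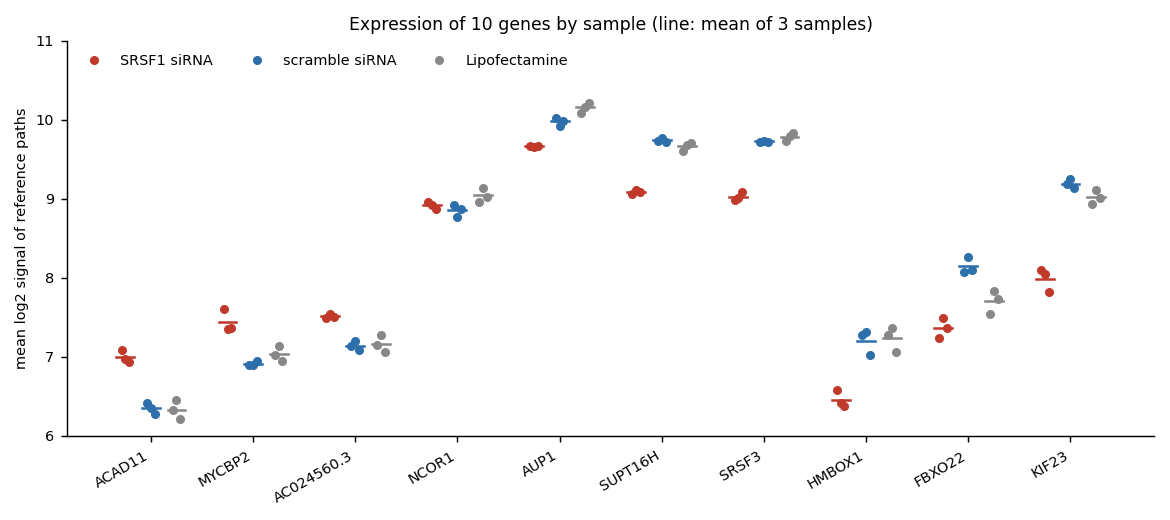
Level of the 10 named genes as the mean log2 signal over reference paths (vertical axis) in the 3 samples of SRSF1 siRNA (red), scramble siRNA (blue) and Lipofectamine (grey), with a line at each mean; genes are ordered by their change against scramble siRNA. The samples with SRSF1 siRNA lie apart from those with scramble siRNA in all genes but NCOR1, and FBXO22 with Lipofectamine lies between the other conditions.

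The genes with the largest falls, and with the largest rises without overlap, can be given by ID only. ENSG00000132646 had 7.52, 7.75 and 7.64 with SRSF1 siRNA, against 10.25, 10.38 and 10.38 with scramble siRNA, a fall of 2.70 and the largest absolute change of all genes. ENSG00000010292 had 5.71, 5.84 and 5.10 with SRSF1 siRNA against 8.27, 8.23 and 8.07 with scramble siRNA. Samples 1 and 3 with SRSF1 siRNA were under the threshold of 5.77 and sample 2 was just above it. Of the rises, ENSG00000219200 had 8.45, 8.25 and 8.02 with SRSF1 siRNA against 5.86, 6.19 and 5.61 with scramble siRNA. Sample 3 with scramble siRNA and the samples with Lipofectamine, at 5.59, 5.74 and 5.52, were under the threshold. The size of this rise, which rests on 1 event, is therefore uncertain. ENSG00000135318 had 10.60, 10.68 and 10.85 with SRSF1 siRNA against 8.49, 8.56 and 8.31 with scramble siRNA. Its signals with Lipofectamine were 9.49, 9.71 and 10.25, so the change of 2.25 against scramble siRNA was 0.89 against Lipofectamine. With the mean of all paths, the falls of ENSG00000132646 and ENSG00000010292 were 1.23 and 1.71 on the log2 scale.

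Splicing changed moderately, in events of 1688 genes. An event was tested for a rise in one of its paths that goes with a fall in the other. Of 25805 events whose 3 paths passed the threshold, 2156 were called (8.35%). Path 1 was up and path 2 down in 1173 of them, and path 2 was up and path 1 down in 983. Without replicate 1 of SRSF1 siRNA, path 1 was up in 775 and path 2 in 713 events. In a called event the median of the larger absolute change was 0.47, that of the smaller one was 0.22, and the gap between the changes of the paths had a median of 0.71. One of the paths changed by over 2-fold in 246 events, and both did in 11. In 1651 of the events tested (6.40%) the samples with SRSF1 siRNA and scramble siRNA did not overlap in either path and lay in opposite directions, and 1343 of these were among the called events. In 690 of the 25805 events tested both paths lay outside all 6 control samples in opposite directions, and 654 of these were called. Between scramble siRNA and Lipofectamine, 71 events were called (0.275%).

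Each path was also tested by itself. Both paths were higher in 2172 events tested (8.42%) and both were lower in 1571 (6.09%), so that paths moving together were more frequent than paths called in opposite directions, which were 1011 events (3.92%). All of these 1011 were called by the test of opposite changes. In 9665 events only 1 of the paths was called by itself, and 1007 of these were called as events, 462 through path 1 and 545 through path 2. In the remaining 11386 neither path was called by itself, and 138 were called as events. So 1011 of the 2156 events rest on 2 paths that each changed by themselves. A stricter rule takes the larger one of both p-values and so needs each path to change by itself. Under it 409 events passed (1.58%), 211 with path 1 up and 198 with path 2 up.

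**Figure D3:**
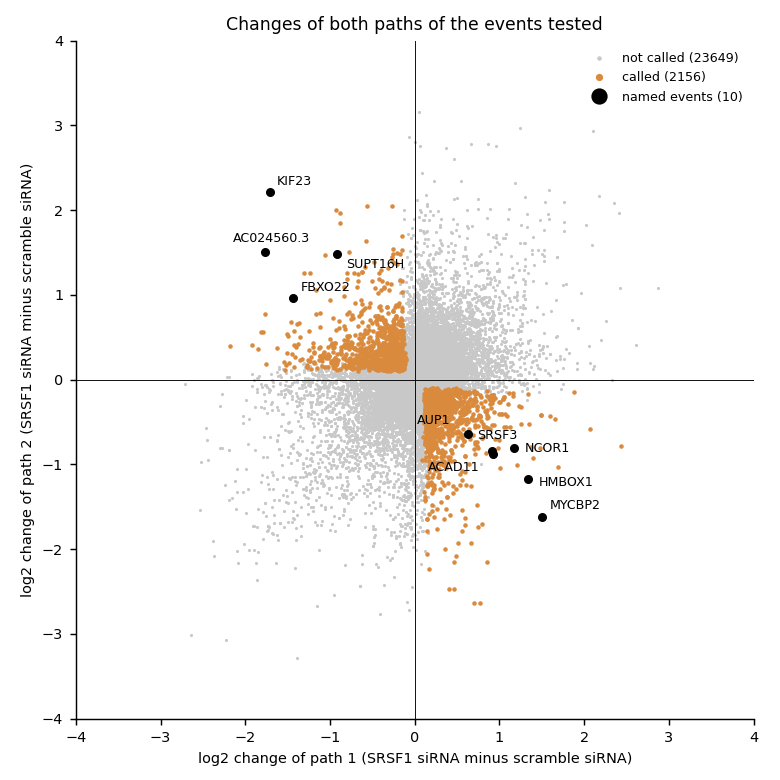
Log2 change of path 2 (vertical axis) against that of path 1 (horizontal axis), SRSF1 siRNA minus scramble siRNA, for the 25805 events tested, with the 2156 called events in orange and the 10 named events in black. Called events fill the upper left and lower right quadrants, where the paths move in opposite directions, with KIF23 at -1.71 and 2.22 at the far upper left.

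Events were called more often in genes whose expression was lower with SRSF1 siRNA. In genes that were lower, 1151 of 7051 events tested were called (16.3%), against 355 of 7302 (4.86%) in genes that were higher and 632 of 10849 (5.83%) in genes that were not called. In the 464 genes whose own level was not tested, 18 of 603 events were called (2.99%). Counted by gene, 850 of the 2668 lower genes with a tested event had at least 1 called event (31.9%), against 299 of 2741 higher genes (10.9%) and 521 of 4211 genes not called (12.4%). The level of a gene and the paths of its events come from the same arrays and the same contrast, so these shares are a description and were not tested. Among 4 equal bins of events by the lower of the mean signals of path 1 and path 2 with Lipofectamine, the share called was 9.73%, 8.65%, 7.69% and 7.35% from the weakest to the strongest. Under the stricter rule it was 2.46%, 1.46%, 1.09% and 1.33%, so it was highest in the weakest bin under both rules. The weakest bin starts at a log2 signal of 3.02, under the threshold of the filter. A path that low with Lipofectamine was tested only if its highest sample passed the threshold, which favours paths that rise in another condition. The part of this filter in the share of the weakest bin was not tested.

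**Figure D4:**
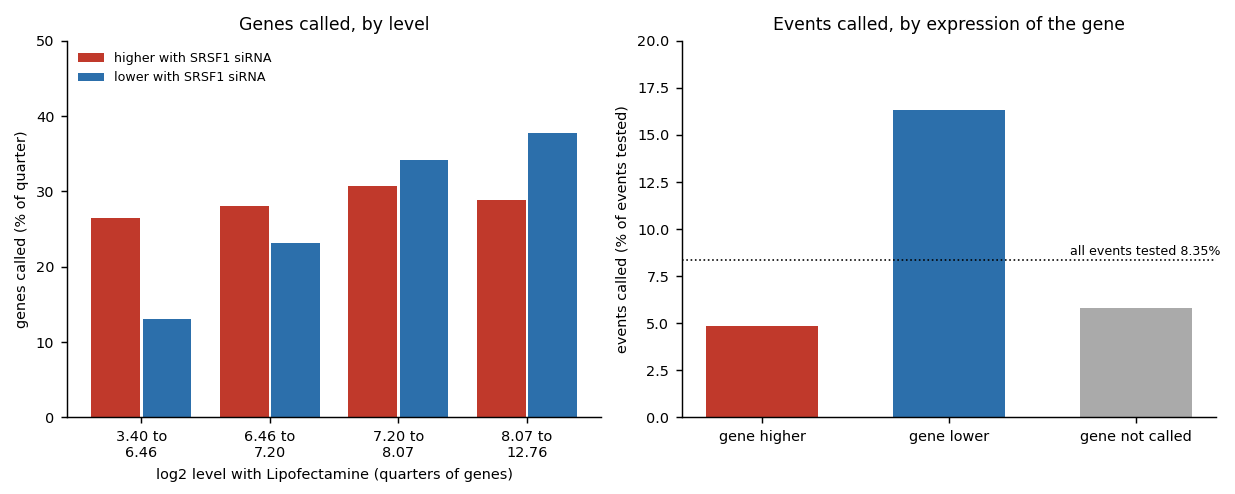
Left, percentage of genes called higher (red) and lower (blue) with SRSF1 siRNA in 4 equal bins of the genes by their log2 signal with Lipofectamine (horizontal axis). Right, percentage of the events tested that were called, in genes that were higher, lower or not called, with a dotted line at 8.35%, the share of all events tested. Lower genes reach 16.3%. Events of genes whose own level was not tested are not drawn but count in the dotted line.

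Most genes with a called event had only 1 of them. Of the 10084 genes with a tested event, 6154 had 2 or more tested, and the others could have at most 1 called event. Of the 1688 genes, 1341 had 1 called event, 259 had 2, 66 had 3, 14 had 4, 5 had 5 and 3 had 6, which was the highest number. Events of a gene are not independent, since they share paths: the 220662 path signals of the table hold 176129 different ones, and 14188 of the paths 1 and 2 are the reference path of another event. The 4312 paths 1 and 2 of the called events hold 3943 different signals. Some signals are shared between genes with different IDs, which touched 240 of the 2156 called events, and their gene is uncertain. Among all 25805 events tested it touched 2652.

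The 10 events with a gene name hold the first 6 places of the ranking by p and places 11, 15, 17 and 28. They were the best ranked events of the study in these same arrays, so their calls are a description and not separate evidence. In all 10, both paths of the 3 samples with SRSF1 siRNA lay outside all 6 control samples in opposite directions, and all 10 also passed the stricter rule. Over all 25805 events tested, both paths lay so in 690. The events of KIF23 and HMBOX1 passed the filter only through SRSF1 siRNA, where one of their paths rose above the threshold. Positions are on GRCh37, as the study gives them.

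In 3 of the 4 cassette events the path that includes the exon fell and the path that skips it rose. KIF23 (chr15:69713986-69714774) ranked first. Its path 1 had 7.35, 7.36 and 7.17 with SRSF1 siRNA, against 9.00, 9.08 and 8.93 with scramble siRNA. Its path 2 had 6.96, 6.76 and 6.52 with SRSF1 siRNA against 4.73, 4.30 and 4.57 with scramble siRNA, so that the skipping path was above the threshold of 5.77 in each sample with SRSF1 siRNA and below it in each control. The changes were -1.71 and 2.22 (standard error 0.11, adjusted p = 1.11e-25), the gap of 3.93 between them being the largest among called events. Under the stricter rule the event had an adjusted p of 1.07e-10. The rise of path 2 starts from a signal under the threshold, so its size is uncertain. The event was tested only because path 2 passed the threshold with SRSF1 siRNA. Its rank and adjusted p are thus not separate from the rise that let it in.

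AC024560.3 (chr3:197348575-197350253) had 7.26, 7.29 and 7.34 in path 1 with SRSF1 siRNA, against 9.11, 9.13 and 8.94 with scramble siRNA. Path 2 had 8.21, 8.15 and 7.96 with SRSF1 siRNA against 6.55, 6.72 and 6.56 with scramble siRNA. The paths are a 3.40-fold lower and a 2.83-fold higher signal, while the reference path rose by 0.53. FBXO22 (chr15:76196323-76205608), with a single event in the table, had 8.41, 8.52 and 8.59 in path 1 with SRSF1 siRNA against 9.89, 10.01 and 9.92 with scramble siRNA. In path 2 it had 9.29, 9.39 and 9.39 with SRSF1 siRNA against 8.54, 8.45 and 8.19 with scramble siRNA. Its path 1 was 2.70-fold lower and its path 2 1.95-fold higher. Both paths of FBXO22 were higher with scramble siRNA than with Lipofectamine, by 0.42 and 0.39, as its reference path was, so against Lipofectamine the fall of path 1 was smaller (1.01) and the rise of path 2 was larger (1.36).

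NCOR1 (chr17:16052765-16055312) went the other way, with the including path higher. Its path 1 had 9.45, 9.37 and 9.31 with SRSF1 siRNA, against 8.39, 8.11 and 8.11 with scramble siRNA, a 2.25-fold higher signal. Its path 2 had 9.24, 9.17 and 9.00 with SRSF1 siRNA against 9.98, 9.83 and 10.03 with scramble siRNA, which is 1.75-fold lower. The reference path changed by 0.15, and the gene as a whole was not called, so in NCOR1 the paths changed beside a level that did not pass the test. The direction of path 1 in these 4 events, down in 3 and up in 1, concerns events chosen by rank and was not compared with other cassette events, whose type was not analysed here.

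**Figure D5:**
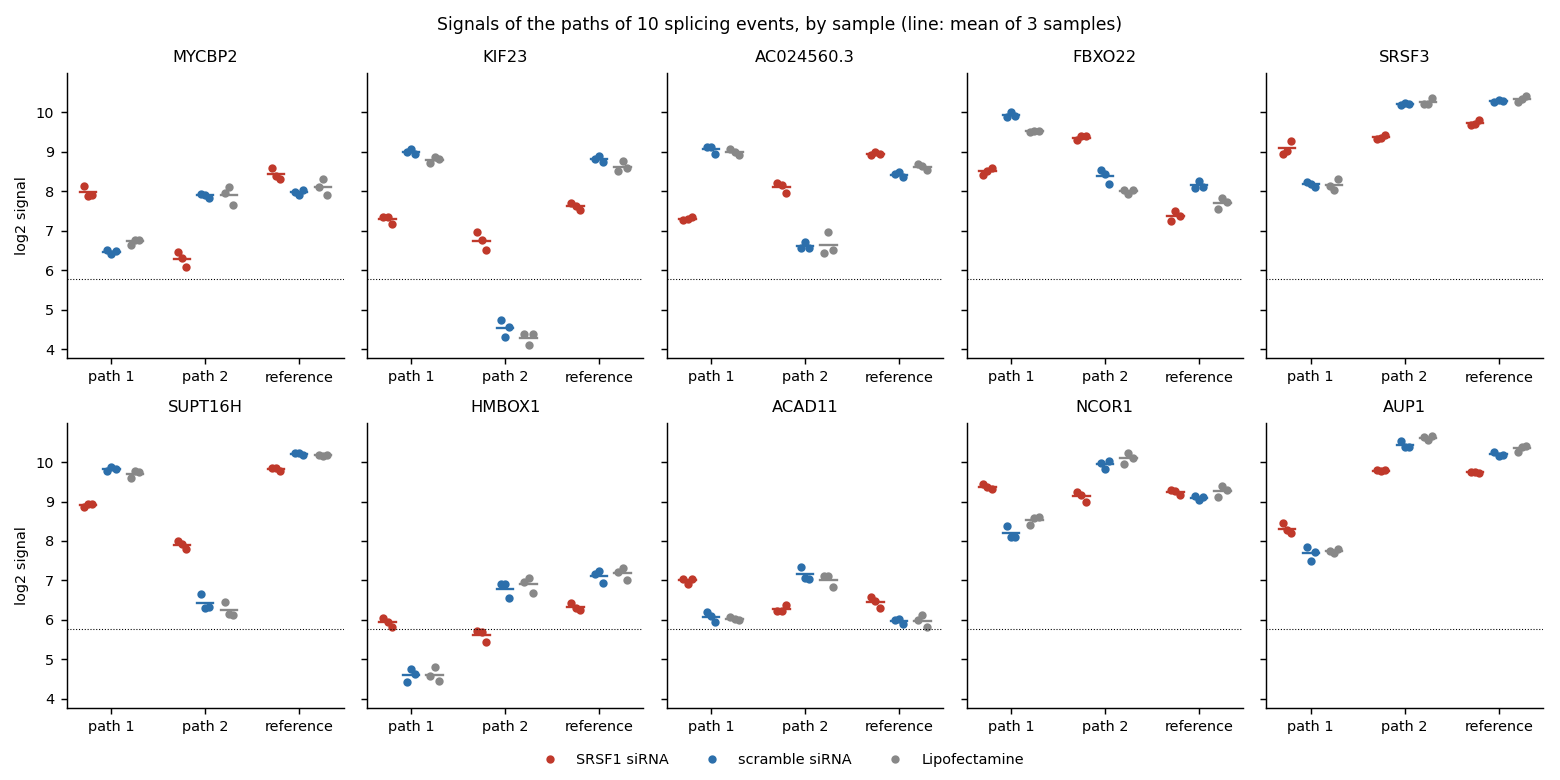
Log2 signals (vertical axis) of path 1, path 2 and the reference path of the 10 named events in the 3 samples of SRSF1 siRNA (red), scramble siRNA (blue) and Lipofectamine (grey), with a line at each mean and a dotted line at the threshold of 5.77. In every panel path 1 and path 2 with SRSF1 siRNA lie apart from both controls in opposite directions; path 2 of KIF23 and path 1 of HMBOX1 are below the threshold in the controls.

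Of the named events, 3 are complex, a class for events that match no standard type, and path 1 was up in these 3. They too were chosen by rank and were not compared with other complex events. MYCBP2 (chr13:77673020-77695630) had 8.14, 7.88 and 7.91 in path 1 with SRSF1 siRNA, against 6.51, 6.41 and 6.49 with scramble siRNA. Path 2 had 6.46, 6.30 and 6.07 with SRSF1 siRNA against 7.93, 7.91 and 7.84 with scramble siRNA. Path 1 was 2.84-fold higher and path 2 3.07-fold lower (standard error 0.11 on the log2 scale, adjusted p = 7.95e-23). SRSF3 (chr6:36566626-36568967) had 8.96, 9.03 and 9.28 in path 1 with SRSF1 siRNA against 8.24, 8.19 and 8.12 with scramble siRNA. Its path 2 had 9.33, 9.35 and 9.44 with SRSF1 siRNA against 10.19, 10.25 and 10.21 with scramble siRNA. Path 1 was 1.87-fold higher while path 2, the reference path and the gene were lower. ACAD11 (chr3:132297677-132298402) had 7.05, 6.92 and 7.04 in path 1 with SRSF1 siRNA against 6.20, 6.09 and 5.94 with scramble siRNA. Path 2 was at 6.21, 6.22 and 6.38 with SRSF1 siRNA against 7.35, 7.06 and 7.05 with scramble siRNA. Path 2 was 1.84-fold lower although the reference path and the gene were higher.

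At the ends of transcripts, SUPT16H and HMBOX1 changed an alternative last exon and an alternative first exon. SUPT16H (chr14:21837979-21852105) had 8.86, 8.93 and 8.94 in path 1 with SRSF1 siRNA, against 9.77, 9.89 and 9.82 with scramble siRNA. In path 2 it had 8.002, 7.92 and 7.81 with SRSF1 siRNA against 6.66, 6.30 and 6.32 with scramble siRNA, a 2.80-fold higher signal. Sample 1 with scramble siRNA was the highest of the controls in path 2 and still over 1 log2 unit below the lowest sample with SRSF1 siRNA. HMBOX1 (chr8:28902878-28904970) had 6.06, 5.95 and 5.82 in path 1 with SRSF1 siRNA against 4.43, 4.76 and 4.63 with scramble siRNA. Path 2 was at 5.72, 5.69 and 5.43 with SRSF1 siRNA against 6.90, 6.91 and 6.55 with scramble siRNA. Both paths lay close to the threshold of 5.77 with SRSF1 siRNA, and path 1 was under it in all controls. This event was therefore tested only because path 1 passed with SRSF1 siRNA, and its call is not separate from that rise. The retained intron of AUP1 (chr2:74754863-74755133) had the smallest changes, with 8.44, 8.27 and 8.21 in path 1, which keeps the intron, with SRSF1 siRNA against 7.84, 7.50 and 7.71 with scramble siRNA. In path 2 it had 9.79, 9.76 and 9.80 with SRSF1 siRNA against 10.54, 10.37 and 10.39 with scramble siRNA. The path with the intron was 1.54-fold higher and the spliced path 1.57-fold lower (standard error 0.08 on the log2 scale, adjusted p = 5.42e-14).

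The 10 genes have 70 events in the table, of which 38 were tested and 17 called, 10 of them being the events above. Of the other 28 tested events, 7 were called (25%, against 8.35% of all events), and they lie in only 3 genes, AUP1 with 5, SRSF3 with 1 and NCOR1 with 1. These 7 events were picked after their values were seen. In SRSF3 the second called event had 10.003, 10.05 and 10.04 in path 1 with SRSF1 siRNA, against 10.81, 10.80 and 10.80 with scramble siRNA. Its path 2 had 8.58, 8.43 and 8.80 with SRSF1 siRNA against 7.62, 7.99 and 7.79 with scramble siRNA. The path 1 that fell here is the reference path of an event that was not tested, and that event shares its path 2 with the best ranked one, so the calls of SRSF3 are not separate. In the untested event path 1 had 5.21, 4.85 and 5.12 with SRSF1 siRNA against 3.47, 4.03 and 3.76 with scramble siRNA, below the threshold in every sample.

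In KIF23 the fall reached the reference path of each event. All 9 reference paths, 6 different signals, were lower, with changes between -1.52 and -1.08. In the 4 other tested events no path 2 was higher, and none was called (adjusted p = 1 in each). Path 1 of one of them had 5.18, 5.18 and 5.10 with SRSF1 siRNA against 7.71, 7.58 and 7.52 with scramble siRNA, while its path 2 had a change of -0.71. This path 1 was under the threshold of 5.77 in each sample with SRSF1 siRNA, so the size of its fall is uncertain. Signals that did not follow the gene existed as well: a path shared by 2 events had 8.58, 8.55 and 8.57 with SRSF1 siRNA against 8.71, 8.62 and 8.62 with scramble siRNA, a change of -0.09. The other 4 events had a path under the threshold.

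In MYCBP2 and ACAD11 the path that rose contains a further event. Path 1 of the called event of MYCBP2 is the reference path of an event that was not tested, since its own path 1 stayed under the threshold at 5.41, 5.01 and 5.31 with SRSF1 siRNA, against 5.35, 5.04 and 5.22 with scramble siRNA. Path 2 of this inner event had 8.41, 7.98 and 8.24 with SRSF1 siRNA against 6.50, 6.45 and 6.71 with scramble siRNA, a change of 1.66. In ACAD11 path 1 of the called event is the reference path of a tested event whose paths both were higher, by 0.99 and 0.88, so the inner paths moved together (adjusted p = 1 for opposite changes). All 9 reference paths of ACAD11 had positive changes, from 0.37 to 1.02, and all 6 of MYCBP2 did, from 0.04 to 1.51. The change of MYCBP2 as a gene thus contains the path signal of its own event.

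AUP1 had the most called events of the named genes, 6 of 8, all with path 1 up. Path 1 rose by between 0.20 and 0.62 and path 2 fell by between 0.35 and 0.66, and 2 of these events share their path 2. The 8 events have 5 different reference signals. Under the stricter rule 4 of the 6 passed, and the others had an adjusted p of 0.183 and 0.0739. The event with the smallest change of path 1 (0.20) also lost its call with hybridization 3 only (adjusted p = 0.226). In one of the 2 events of AUP1 that were not called, both paths were higher, by 0.25 and 0.56, and its reference path is path 1 of a called event. In NCOR1, 15 of the 20 reference paths had a positive and 5 a negative change, all between -0.10 and 0.19. Its second called event had 9.05, 8.98 and 8.95 in path 1 with SRSF1 siRNA, against 8.43, 8.16 and 8.24 with scramble siRNA. Its path 2 fell by 0.27, and under the stricter rule the event had an adjusted p of 0.0793. Against Lipofectamine, at 8.67, 8.78 and 8.65 in path 1, its change was 0.29, as path 1 was 0.42 lower with scramble siRNA than with Lipofectamine.

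In HMBOX1 all 7 reference paths were lower, with changes between -1.17 and -0.54, and the path 2 that fell in the called event is itself the reference path of another event. The second tested event of the gene had 5.53, 5.42 and 5.86 in path 1 with SRSF1 siRNA, against 5.28, 5.57 and 5.29 with scramble siRNA. Its path 2 had 4.81, 4.91 and 4.69 with SRSF1 siRNA against 6.80, 6.16 and 5.92 with scramble siRNA, a change of -1.49 whose size is uncertain, since each sample with SRSF1 siRNA was under the threshold. Path 1 overlapped, and the event was not called (adjusted p = 0.0987). In SUPT16H the other event had changes of -0.31 in path 1 and -1.03 in path 2, and in AC024560.3 the other tested event had 0.29 and 0.62, so in both genes the paths of the other event moved the same way as the gene.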

How the data were processed

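RNA of A549 cells was measured on HTA 2.0 arrays, 27 hybridizations in 3 conditions. With Bowtie the authors mapped probes to Ensembl transcripts (GRCh37). They used aroma.affymetrix 3.0.0 for background correction, quantile normalization over all arrays and RMA, and deposited a log2 signal per path. Hybridizations of a sample (3 each) were averaged here, and the 9 samples were fitted together with limma 3.58.1 in R 4.3.3. Genes were tested on the mean of their reference paths. Events were tested in the extended design of the methods, with 1 spread for the 3 paths, by adding the one-sided p-values of opposite changes and referring them to the triangular distribution. This treats the paths of a sample as separate observations and both p-values as independent. The size of the smallest p-values of events rests on that assumption. P-values were adjusted by Benjamini-Hochberg over all genes or events tested, at 0.05. The methods give no quantile for the filter on signal, and 25% was used. The tests of genes and of events were tested on simulated data.

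Samples of SRSF1 siRNA and scramble siRNA with the same number deviated together (r = 0.144, 0.169 and 0.148 across events). Other pairs had an r of at most 0. Deviations of samples from their mean cancel out, so the values of other pairs are not separate support. The numbers were used to pair the samples only in an alternative fit, with the sample number as a block. The main fits did not pair them. The pairing comes from these data and not from the labels. Labels do not say that the samples were separate cultures.

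Members and lists were chosen with earlier results of these data known. The rule for named genes asked for SRSF1, members of gene lists, the largest changes and the 10 events that the study pairs with an ID. As 0 of 16733 IDs were found among the reference gene names, only those 10 events (AC024560.3 by its position) and, by ID, the 2 largest rises and falls without overlap were named. SRSF1, the gene lists and the markers of cell types were not analysed here.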

Additional observations from a re-analysis of the deposited data

How the results depend on the processing

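The counts of genes kept within 1.5 times of 3581 higher and 3391 lower under each alternative, except that 2318 were higher with hybridization 1 only. Which direction was larger was not stable: more genes were lower than higher with the filter at the 50% quantile (2556 higher, 2680 lower), with hybridization 1 only (2516 lower) and with hybridization 3 only (2879 higher, 2970 lower), without replicate 2 of SRSF1 siRNA (3094 higher, 3096 lower), and with each array centred on its median over all paths, an alternative chosen after seeing the data (3195 higher, 3535 lower). Falls over 2-fold outnumbered rises under each alternative, though the mean of all paths left 52 rises and 126 falls. Of the 2156 events, 747 passed with the filter at the 50% quantile, 4039 without a filter, 409 under the stricter rule of the larger p-value and 7928 with a test of the difference between the path changes. With hybridization 1, 2 or 3 only, 1223, 1061 and 992 passed. Leaving out each replicate in turn gave 3094 to 3770 higher genes, 3066 to 3466 lower genes and 1488 to 2370 events, the 1488 without replicate 1 of SRSF1 siRNA. With the sample number as a block, 3918 genes were higher, 3583 lower and 2535 events changed, and the block changed no call of a named gene or event. The replicate number taken as the biological replicate gave 4610 and 3993 genes and 3027 events. The directions of the named genes and of both paths of the 17 called events of named genes were kept under each alternative that tested them. Their other events were not run under alternatives. Of these 17, calls were lost for 2 events of AUP1 and 1 of NCOR1, with the values given above. The best ranked events of KIF23, HMBOX1 and ACAD11 and 1 other event of AUP1 dropped out of the tested events under the 50% filter. Alternatives for SRSF1 and for the gene lists were not run, as these were not analysed here.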
